A study of Mus musculus with 6 samples.

Results

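The genes described here are 34 listed genes of the nephron lineage and of the tubule segments downstream of the glomerulus: progenitor and lineage transcription factors, aquaporins, segment transporters and receptors, and a pair of injury genes. Each was measured by the probe set that carries its platform symbol alone, taking the one with the highest mean over the 6 arrays where a gene had several. By that rule 32 of the 34 genes were measured, out of 30063 genes on the array with a probe set of their own. The probe sets of Gata3 and Pou3f3 also name another gene, so these 2 transcription factor genes have no value here. The list was drawn up with earlier results of these data known.

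RNA came from a conditionally immortalized mouse podocyte line with NCK1/2 knockout and from a wildtype line, each kept on type I collagen for 10 days of differentiation, with 3 arrays per line that the submitters describe as independent. Such cells divide while an immortalizing gene is switched on and mature after it is switched off. Nck1 and Nck2 are adaptor proteins that connect phosphorylated receptors such as nephrin to actin. Each genotype is represented by 1 line, so knockout and any other difference between the lines cannot be told apart, and the p-values measure the spread between arrays of these lines. The lines also differed in sex-linked transcripts: Xist averaged 6.01 in knockout and 12.19 in wildtype, and Uty averaged 9.90 in knockout and 5.21 in wildtype (log2 intensity). Nck1 averaged 8.12 in knockout and 8.63 in wildtype (log2 difference -0.51, limma adjusted p = 0.00384). Nck2 averaged 7.24 in knockout and 7.48 in wildtype (log2 difference -0.24, limma adjusted p = 0.0928). The place of these probe sets relative to the deleted parts is not given in the sources, so they are no check of the genotype labels.

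The nephron forms from mesenchymal progenitors that condense around the ureteric bud, turn into an epithelium and pattern into podocytes, proximal tubule, loop and distal tubule, while the bud gives rise to the collecting duct. Progenitor factors such as Six2, Osr1 and Eya1 are normally lost as the epithelium matures, and each tubule segment then acquires its own transporters and water channels. Podocytes and tubule cells therefore share an origin but have different mature genes.

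All values are log2 probe set intensities. Probe sets differ in their own background and brightness, so levels are compared between lines for a gene and not between genes. The array carries 23 background control probe sets of rising GC content, whose means ran from 2.33 to 7.78 with a median of 4.48. Where a line's mean did not exceed 7.78 the gene is described as within the background range, which does not show that it is silent. Of the 32 genes, 10 had both lines above that range, 3 had 1 line above it and 19 had both lines within it. Foxd1 and Irx3 were above it in wildtype only and Eya1 in knockout only. Foxd1 lay on the limit, with a knockout mean of 7.78.

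In all, 3 genes (Osr1, Sall1 and Eya1) were higher and 7 (Pax8, Irx3, Aqp1, Lrp2, Cubn, Cdh16 and Havcr1) were lower in knockout, while 22 of the 32 did not pass (limma, Benjamini-Hochberg adjusted p under 0.05 over all genes). The 10 called genes made up 31.2% of the list, beside 12.1% of all genes tested. For higher calls the shares were 9.38% of the list and 5.12% of all genes, and for lower calls 21.9% of the list and 7% of all genes. The 3 values of each line did not overlap for 12 of the 32 genes, 37.5%, beside 27.5% of all genes. Calls were least frequent with both lines within the background range, where 2 of 19 listed genes were called, beside 3.78% of all genes. With both lines above that range, 6 of the 10 listed genes were called, beside 22.2% of all genes. With 1 line above it, 2 of 3 listed genes were called, beside 58.4% of all genes. The lines of that last class lie on either side of the limit by definition. The median log2 difference was 0.0004 over the list and 0.012 over all genes. The count of all genes called was 3643, and it fell to 2230 without knockout array 1, 2299 without knockout array 2 and 2065 without wildtype array 3. The split of 1540 higher and 2103 lower became 2815 higher and 1698 lower with chromosome medians taken off, an alternative chosen after the data were seen.

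**Figure D1:**
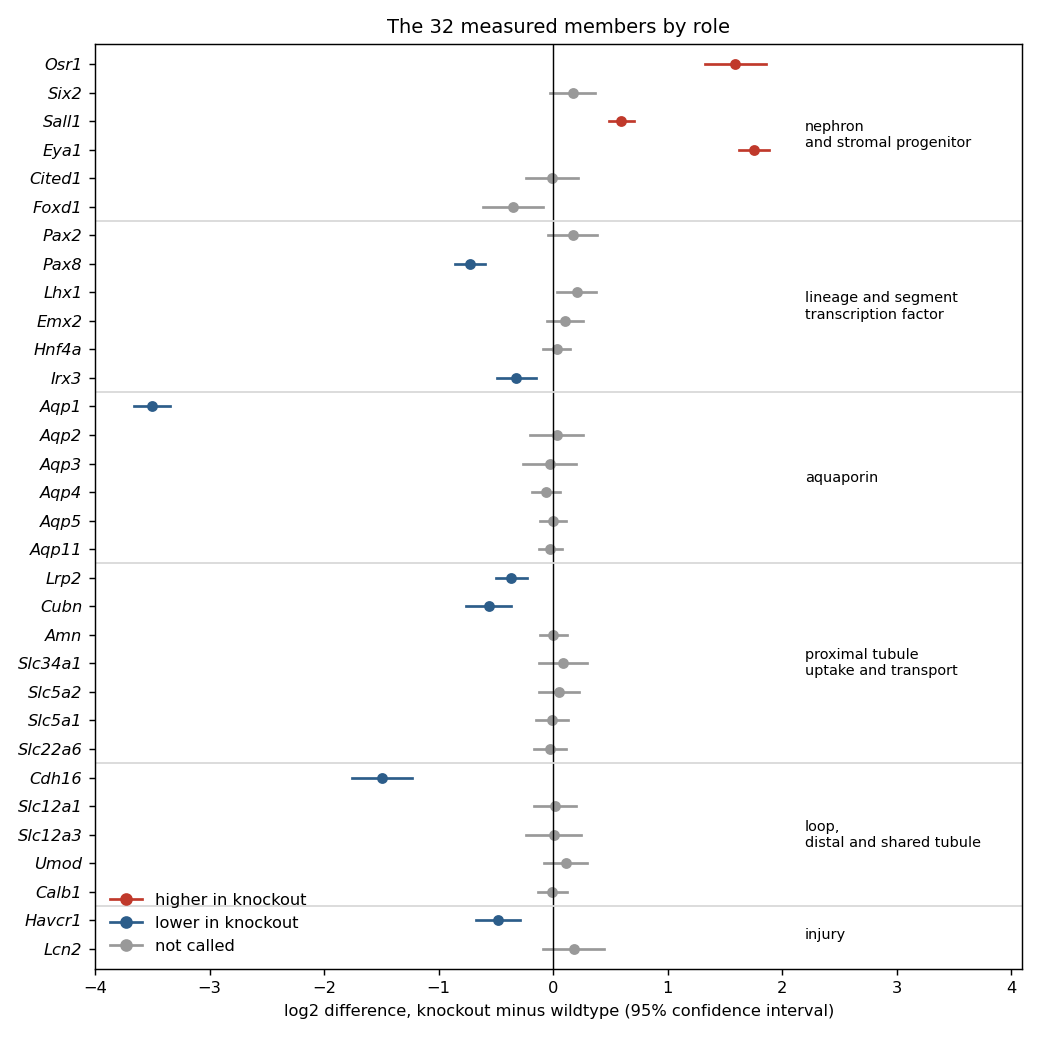
The log2 difference, knockout minus wildtype, of the 32 measured genes in order of role, with its 95% confidence interval from limma (3 arrays per line). The called genes run from Aqp1 at -3.50 to Eya1 at 1.75, and the genes not called lie between -0.35 and 0.21.

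Eya1, Osr1 and Sall1 rose in knockout. Eya1 encodes a phosphatase and transcriptional coactivator needed for kidney induction and for the maintenance of nephron progenitors. It read 9.34, 9.38 and 9.38 in the knockout arrays, against 7.58, 7.70 and 7.56 in the wildtype arrays. All knockout values were above all wildtype values by at least 1.65, and the log2 difference was 1.75 (SE 0.05, limma adjusted p = 1.54e-05), a 3.38-fold rise from a wildtype mean within the background range, so the size of that rise depends on a level not separated from background. Osr1 encodes a zinc finger factor of the intermediate mesoderm from which the kidney arises. Its values were 9.31, 9.47 and 9.66 in the knockout arrays, against 8.05, 7.76 and 7.86 in the wildtype arrays. Again the lines did not overlap, with a log2 difference of 1.59 (SE 0.11, limma adjusted p = 0.000357), or 3.02-fold higher. Its wildtype mean of 7.89 was just above the background limit. Sall1, a zinc finger factor that acts with Six2 in nephron progenitors, read 8.63, 8.72 and 8.69 in the knockout arrays, against 8.08, 8.11 and 8.07 in the wildtype arrays, a log2 difference of 0.59 (SE 0.05, limma adjusted p = 0.000519). The spread of Sall1 within each line was small beside that difference, with SDs of 0.05 in knockout and 0.02 in wildtype (n = 3 each). In such bulk RNA, a change in the number of cells that carry a transcript and a change in its amount per cell cannot be told apart.

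The other progenitor genes did not pass. Foxd1, a forkhead gene of the renal stromal progenitors, read 7.68, 7.96 and 7.69 in the knockout arrays, against 7.97, 8.30 and 8.10 in the wildtype arrays. Every knockout value lay below every wildtype value, by only 0.02 at the nearest, and the difference of -0.35 (95% confidence interval -0.61 to -0.08, limma adjusted p = 0.105) passed under 3 of 16 alternatives, with array weights (adjusted p = 0.00926), in a fit blocked on replicate number (0.0172) and in one limited to genes above the background range (0.0463), over a range of 0.00926 to 0.294. Six2, which keeps nephron progenitors self-renewing, differed by 0.17 (95% confidence interval -0.02 to 0.37, limma adjusted p = 0.285). Cited1, a coactivator gene of the earliest cap mesenchyme, differed by -0.01 (95% confidence interval -0.24 to 0.22, limma adjusted p = 0.986). Both were within the background range in each line, so a low level of either would not have been separated from background.

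Among the lineage and segment transcription factors, Pax8 and Irx3 fell and 4 did not pass. Pax2 and Pax8 are paired-box factors that specify the nephric lineage, and both were well above the background range. Pax8 read 10.67, 10.64 and 10.76 in the knockout arrays, against 11.42, 11.47 and 11.36 in the wildtype arrays. The lines were separated by 0.59 at the nearest, and the log2 difference was -0.73 (SE 0.06, limma adjusted p = 0.000523), or 1.65-fold lower. Pax2 read 10.44, 10.43 and 10.70 in the knockout arrays, against 10.31, 10.45 and 10.29 in the wildtype arrays. Its lines overlapped, and the difference was 0.17 (95% confidence interval -0.04 to 0.39, limma adjusted p = 0.342). Irx3, an Iroquois factor of the intermediate nephron segments, read 7.46, 7.66 and 7.50 in the knockout arrays, against 7.95, 7.81 and 7.82 in the wildtype arrays. The lines did not overlap, but the log2 difference of -0.32 (SE 0.07, limma adjusted p = 0.0358) was small and the call was lost under 7 of 15 alternatives. It was lost without any of knockout array 1 (0.127), knockout array 3 (0.115), wildtype array 1 (0.0907), wildtype array 2 (0.0726) and wildtype array 3 (0.105), with the replicate block (0.0617), and when all probe sets were tested (0.0732), these being limma adjusted p values.

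Lhx1, a LIM homeobox gene of the early nephric duct and renal vesicle, read 7.96, 7.95 and 8.10 in the knockout arrays, against 7.86, 7.69 and 7.84 in the wildtype arrays. Its lines did not overlap, by 0.09, and the difference of 0.21 (95% confidence interval 0.04 to 0.38, limma adjusted p = 0.127) passed with array weights (adjusted p = 0.0181) and with chromosome medians taken off (0.022), over a range of 0.0181 to 0.300. Emx2, a homeobox gene of the ureteric bud epithelium, read 8.59, 8.59 and 8.53 in the knockout arrays, against 8.42, 8.59 and 8.38 in the wildtype arrays. The highest wildtype value equalled the knockout values of arrays 1 and 2 to the printed digits, and the difference was 0.11 (95% confidence interval -0.05 to 0.26, limma adjusted p = 0.437). Hnf4a, the nuclear receptor gene that drives maturation of the proximal tubule, was within the background range and differed by 0.03 (95% confidence interval -0.09 to 0.15, limma adjusted p = 0.844).

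**Figure D2:**
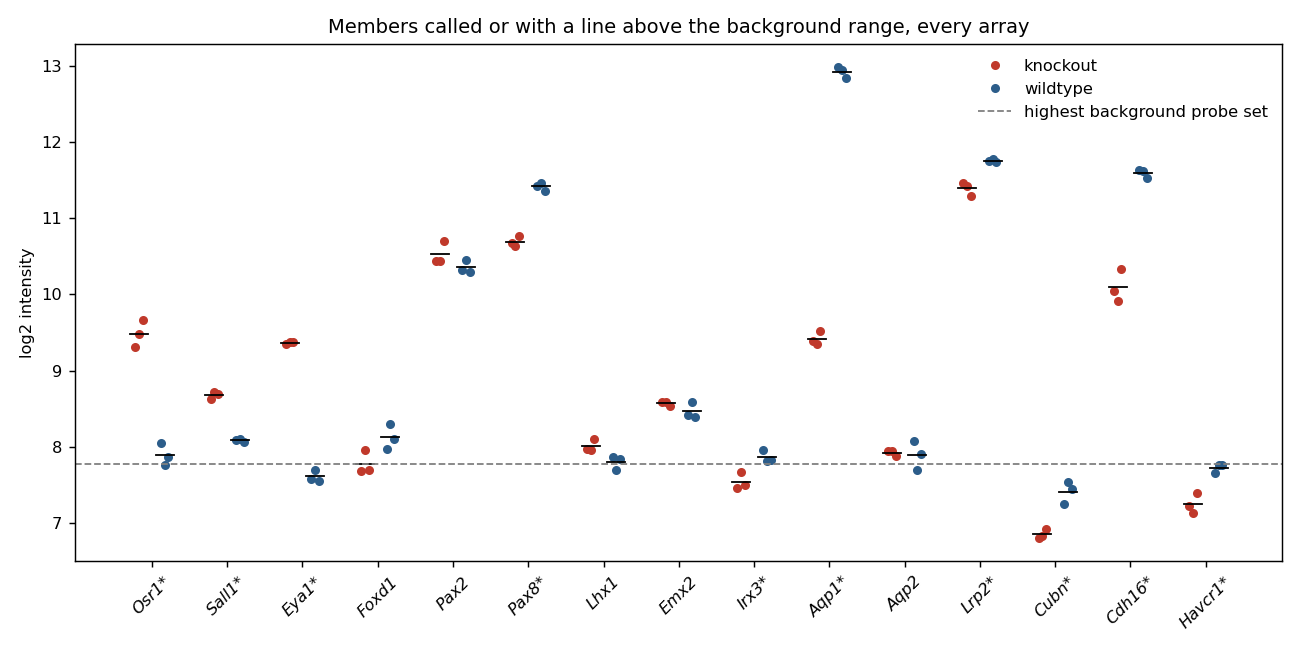
Log2 intensity in every array for the 15 genes that were called (marked with an asterisk) or had a line above the background range, with knockout left of wildtype, black bars for means of 3 arrays and a dashed line at the highest background probe set, 7.78. Brightness is not comparable between genes, and the widest gap between lines is that of Aqp1, at least 3.32.

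Of the 6 aquaporins on the list Aqp1 fell and the other 5 did not pass. Aqp1 encodes the water channel of the proximal tubule and the thin descending limb. It read 9.39, 9.35 and 9.52 in the knockout arrays, against 12.98, 12.95 and 12.84 in the wildtype arrays. No other gene of the list differed by as much: the means were 9.42 ± 0.09 in knockout and 12.92 ± 0.08 in wildtype (SD, n = 3 each), a log2 difference of -3.50 (SE 0.07, limma adjusted p = 2.86e-06), or 11.3-fold lower, and both lines were above the background range. Aqp2, the vasopressin-regulated channel of collecting duct principal cells, read 7.94, 7.94 and 7.88 in the knockout arrays, against 8.07, 7.69 and 7.90 in the wildtype arrays. Its lines overlapped and it differed by 0.03 (95% confidence interval -0.20 to 0.26, limma adjusted p = 0.934), a probe set near the background limit. Aqp3 and Aqp4, the basolateral channels of principal cells, differed by -0.03 and -0.06, Aqp5, best known from glands, by -0.002, and Aqp11, an intracellular channel, by -0.02. In both lines these last 4 stayed within the background range, with limma adjusted p values from 0.610 to 0.994. The other measured aquaporin genes outside the list, 6 in number, gave 0 calls by limma and had both lines within the background range. None reached an unadjusted p of 0.05, the lowest being that of Aqp7 at 0.131 (log2 difference -0.11), and 3.78% of all genes in that range were called, so the 0 is near the background.

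Of 3 listed genes of protein uptake, known from the proximal tubule, Lrp2 and Cubn were lower in knockout and Amn did not pass. Lrp2 encodes megalin and Cubn encodes cubilin, the endocytic receptors that retrieve filtered protein, and Amn encodes amnionless, the partner that brings cubilin to the membrane. Lrp2 read 11.46, 11.42 and 11.29 in the knockout arrays, against 11.75, 11.78 and 11.74 in the wildtype arrays. The lines did not overlap, and the log2 difference was -0.36 (SE 0.06, limma adjusted p = 0.00926), or 1.29-fold lower, between 2 bright levels. Cubn read 6.80, 6.83 and 6.91 in the knockout arrays, against 7.25, 7.54 and 7.44 in the wildtype arrays. Its log2 difference of -0.56 (SE 0.08, limma adjusted p = 0.00688) also came without overlap, but both of its means, 6.85 ± 0.06 in knockout and 7.41 ± 0.15 in wildtype, were within the background range. Amn differed by 0.0028 (95% confidence interval -0.12 to 0.12, limma adjusted p = 0.991). Its mean was 7.52 in each line, within the background range, so a change in a low level would not have been separated from background.

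The segment transporters of the proximal tubule did not pass and lay within the background range in both lines. They are the phosphate carrier gene Slc34a1 (log2 difference 0.09), the glucose carrier genes Slc5a2 (0.05) and Slc5a1 (-0.009), and the organic anion transporter gene Slc22a6 (-0.03), with limma adjusted p values from 0.702 to 0.971. The same held for the markers of the loop and distal nephron: the salt carrier genes Slc12a1 of the thick ascending limb (0.02) and Slc12a3 of the distal convoluted tubule (0.005), Umod, which encodes uromodulin (0.11), and Calb1, which encodes a distal calcium-binding protein (-0.008), with adjusted p values from 0.522 to 0.993. Over the 17 genes of the list that were not called and had both lines within the background range, means ran from 5.01 to 7.69 in knockout and from 5.02 to 7.69 in wildtype, and the 95% confidence intervals of the differences stayed between -0.26 and 0.45.

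Cdh16, which encodes a cadherin found along the renal tubule epithelium, fell. It read 10.05, 9.92 and 10.33 in the knockout arrays, against 11.64, 11.62 and 11.53 in the wildtype arrays. All knockout values were at least 1.20 below all wildtype values, and the log2 difference was -1.50 (SE 0.11, limma adjusted p = 0.000408), or 2.82-fold lower, with both lines above the background range. Of the injury genes, Havcr1, which encodes a membrane receptor shed by damaged proximal tubule cells, read 7.21, 7.13 and 7.40 in the knockout arrays, against 7.66, 7.76 and 7.76 in the wildtype arrays. Its lines did not overlap and the log2 difference was -0.48 (SE 0.08, limma adjusted p = 0.0107), with both means within the background range. That call was lost without knockout array 1 (limma adjusted p = 0.0555) and without wildtype array 3 (0.0594). Lcn2, which encodes a siderophore-binding protein released on tubule injury, differed by 0.18 (95% confidence interval -0.09 to 0.45, limma adjusted p = 0.45). Both Lcn2 means were within the background range. Apart from Irx3 and Havcr1, the 8 called genes passed under every alternative in which they were tested. Lrp2 and Cubn passed only narrowly in some, with highest limma adjusted p values of 0.0474 and 0.0429.

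The called genes lie on 6 chromosomes. Pax8, Lrp2 and Cubn are on chromosome 2, Sall1, Irx3 and Cdh16 on chromosome 8, and Eya1, Aqp1, Havcr1 and Osr1 on chromosomes 1, 6, 11 and 12. The median log2 difference of the brighter protein-coding genes was -0.04 on chromosome 2, -0.01 on chromosome 8 and between -0.14 and -0.02 on the other 4. The largest of these was that of chromosome 11, beside which Havcr1 differed by -0.34 with the chromosome median taken off and was still called.

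Promoter windows from RefSeq (build GRCm38.p6) were held for 26 of the 32 measured genes, 35 windows in all, and were read over the 250 bases before the start. They were searched on both strands for GTTAAT, a core of sites bound by HNF1 factors of tubule epithelium, and for AGGTCA, a core of sites bound by nuclear receptors such as HNF4A. The 2 motifs do not overlap in any window printed here. GTTAAT was present in 5 of the 35 windows and in 6.43% of 32851 windows of all genes, and AGGTCA in 2 of the 35 and in 14% of all windows. No window was read for the called genes Osr1, Eya1 and Cdh16. Of the 7 called genes with a window, Havcr1 held a match, GTTAAT with its first base at -86 in the second of its 3 windows, and the windows of Sall1, Pax8, Irx3, Aqp1, Lrp2 and Cubn held neither run of letters. The windows of 3 bright genes that fell are shown with that of Havcr1 and, for comparison, that of Slc34a1, a proximal tubule gene that was not called and holds GTTAAT at -61 and its reverse complement at -89. Aqp1 is at chr6:55336049-55336298, plus strand, Pax8 at chr2:24475600-24475849, minus strand, Lrp2 at chr2:69586030-69586279, minus strand, Havcr1 at chr11:46750261-46750510, plus strand, and Slc34a1 at chr13:55399398-55399647, plus strand. Each runs 5′ to 3′ on the gene's strand, with motif matches in capitals:
Aqp1: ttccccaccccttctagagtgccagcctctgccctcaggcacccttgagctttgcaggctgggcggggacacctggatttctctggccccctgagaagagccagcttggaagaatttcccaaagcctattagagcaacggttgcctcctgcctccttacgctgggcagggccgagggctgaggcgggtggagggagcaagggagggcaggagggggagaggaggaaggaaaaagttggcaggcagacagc
Pax8: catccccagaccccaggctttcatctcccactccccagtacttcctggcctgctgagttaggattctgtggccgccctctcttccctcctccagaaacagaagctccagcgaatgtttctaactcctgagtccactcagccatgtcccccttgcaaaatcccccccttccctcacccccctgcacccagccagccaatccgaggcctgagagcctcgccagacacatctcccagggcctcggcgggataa
Lrp2: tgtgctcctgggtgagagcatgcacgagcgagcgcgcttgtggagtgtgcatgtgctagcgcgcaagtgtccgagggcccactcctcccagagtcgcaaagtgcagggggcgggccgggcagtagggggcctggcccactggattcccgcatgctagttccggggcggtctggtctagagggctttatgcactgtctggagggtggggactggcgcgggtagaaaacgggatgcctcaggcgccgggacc
Havcr1: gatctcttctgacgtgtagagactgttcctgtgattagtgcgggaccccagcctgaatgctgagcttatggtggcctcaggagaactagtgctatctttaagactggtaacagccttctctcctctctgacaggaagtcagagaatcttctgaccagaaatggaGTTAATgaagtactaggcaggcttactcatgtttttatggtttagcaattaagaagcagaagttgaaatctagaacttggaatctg
Slc34a1: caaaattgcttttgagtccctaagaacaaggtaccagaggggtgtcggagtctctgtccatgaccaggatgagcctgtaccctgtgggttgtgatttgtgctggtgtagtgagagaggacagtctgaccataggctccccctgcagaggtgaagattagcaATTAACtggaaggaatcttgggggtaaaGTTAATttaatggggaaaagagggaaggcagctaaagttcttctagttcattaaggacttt
The Aqp1, Pax8 and Lrp2 windows have 62.0%, 60.4% and 66.4% G and C bases, against 44.0% for Havcr1, 46.4% for Slc34a1 and a median of 52.4% over all windows. These windows were picked for display. Of the other genes that fell, Cubn had 39.6% and Irx3 56.0%, so a high G and C content was not shared by all of them. A match of letters is a description of these windows and not a binding site.

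Further nephron genes were listed by segment. Their counts stand beside the shares over all genes tested: 12.1% called in all, 22.2% where both lines were above the background range and 3.78% where both were within it. Of 25 measured progenitor, ureteric bud and segment regulators 3 rose, 4 fell and 18 did not pass, with 14 of the 25 within the background range in each line (median log2 difference -0.03, beside 0.012 over all genes). Maf, a transcription factor gene, averaged 10.74 ± 0.10 in knockout and 8.59 ± 0.19 in wildtype (log2 difference 2.15, adjusted p = 0.0001). Tfcp2l1, a factor of the distal nephron and collecting duct, averaged 8.28 ± 0.05 in knockout and 10.16 ± 0.07 in wildtype (log2 difference -1.88, adjusted p = 1.52e-05). Ppargc1a, the coactivator gene of mitochondrial biogenesis, averaged 9.79 ± 0.13 in knockout and 11.31 ± 0.07 in wildtype (log2 difference -1.53, adjusted p = 0.000118). These limma calls thus include a factor that rose and a pair that fell, all above the background range in both lines.

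The list of 27 further proximal tubule genes, 21 of them within the background range in each line, held 3 that rose, 5 that fell and 19 that did not pass (median log2 difference -0.007). The sodium bicarbonate carrier gene Slc4a4 fell (-1.39, adjusted p = 0.000541, limma), the creatine synthesis gene Gatm rose (0.87, adjusted p = 0.00174) and Dab2, which encodes the endocytic adaptor of megalin, rose (0.73, adjusted p = 0.00037). Dab2 thus moved the opposite way to Lrp2 and to Cubn, which was within the background range in both lines. Slc4a4, Gatm and Dab2 were named for the size of their differences, and more of the called genes of this list fell than rose. Of 15 genes of the thick ascending limb and distal convoluted tubule 1 rose and 2 fell: the magnesium channel gene Trpm6 (-1.08, adjusted p = 0.00038) and the tight junction gene Cldn19 (-0.47, adjusted p = 0.0479) fell, each above the background range in wildtype only, and the sodium calcium exchanger gene Slc8a1 (0.63, adjusted p = 0.000713) rose with both lines within the background range. Of 16 collecting duct and intercalated cell genes 0 were called by limma, all had both lines within the background range, and the lowest unadjusted p was that of Fxyd4 at 0.217 (log2 difference 0.11). With 3.78% of all genes called in that range, a count of 0 among 16 is near the background and is no result about these genes.

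Of 14 genes of tubule epithelium in general, Pkhd1, which encodes the ciliary protein fibrocystin, fell (-0.997, limma adjusted p = 5.66e-05) and Spint2, a protease inhibitor gene, rose (0.31, adjusted p = 0.00689). The other 12, among them Cdh1 (6.28 in knockout and 6.28 in wildtype) and Epcam (5.80 in knockout and 5.77 in wildtype), did not pass and were within the background range. The choice of these 2 names came after seeing their values. Of 10 measured injury genes 3 rose and 2 fell, with the largest differences in the secreted chaperone gene Clu (-1.14, adjusted p = 0.00376), the hyaluronan receptor gene Cd44 (0.60, adjusted p = 0.00055) and the adhesion receptor gene Vcam1 (-0.59, adjusted p = 0.00418).

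**Figure D3:**
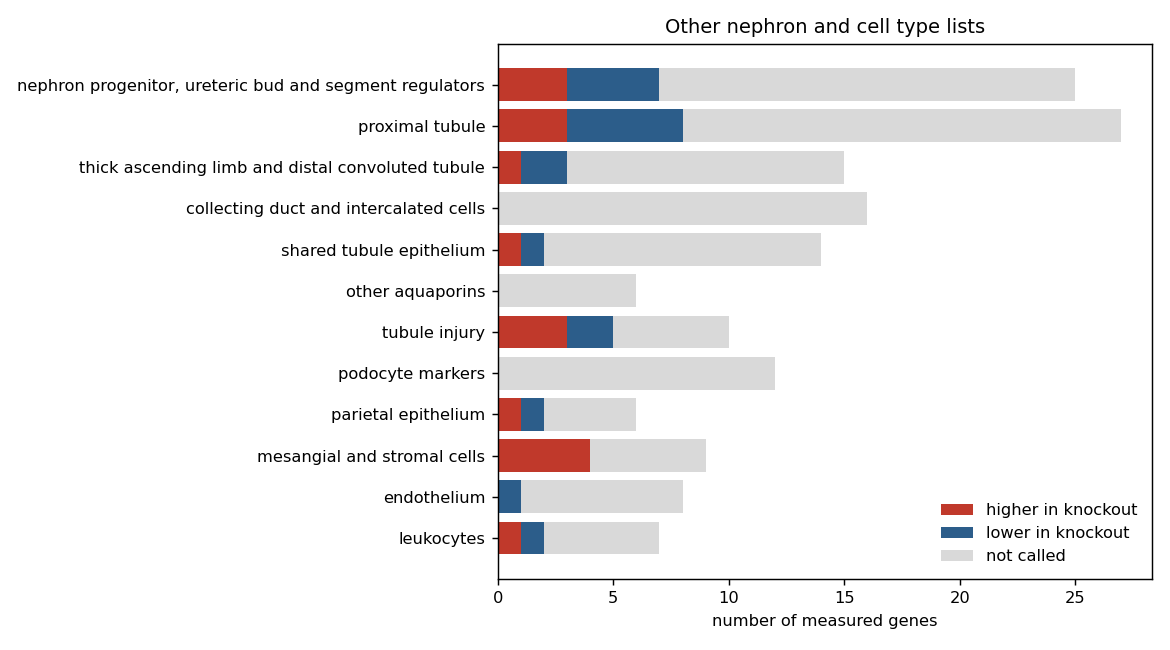
Number of measured genes of each further list that were higher, lower or not called in knockout (limma adjusted p under 0.05, 3 arrays per line). The proximal tubule list holds 3 higher and 5 lower genes, and the collecting duct, other aquaporin and podocyte lists hold no called gene.

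The labels call these cells podocytes. Of 12 measured podocyte markers 0 were called by limma, 6 had both lines within the background range, Nphs1 and Wt1 among them, and 6, among them Synpo and Podxl, were above it. The shares called over all genes were 3.78% within the range and 22.2% above it, so a count of 0 among 12 does not show that podocyte genes were unchanged. The lowest unadjusted p among the 12 was that of Tcf21 at 0.121 (log2 difference -0.09). The mean log2 level of the podocyte list over its genes was 8.14 to 8.16 in the knockout arrays and 8.11 to 8.16 in the wildtype arrays. Some markers of other cell types were called by the same limma test, and their log2 differences are given. Of those named below, Tbx18 (limma adjusted p = 0.0492) and Cd68 (0.0465) passed only just. Of 9 mesangial and stromal markers 4 rose, Acta2 (2.83), Tagln (2.70), Pdgfrb (2.36) and Tbx18 (0.34). The mean level of that list was 8.61 to 8.68 in knockout and 7.72 to 7.77 in wildtype arrays. Its median log2 difference was 0.13, so the list mean does not stand for each of its genes. The list shares Foxd1 with the genes described here. Of the other 5 markers of that list, Des, Thy1, Cspg4 and Itga8 had both lines within the background range and Foxd1 is described above. Of 6 parietal epithelium markers, which include Pax2, Cldn1 fell (-0.87) and Cd24a rose (0.41), with list means of 8.69 to 8.74 in knockout and 8.74 to 8.86 in wildtype arrays. Of 8 endothelial markers Ehd3 fell (-0.67) while Pecam1 and Cdh5 were within the background range, and of 7 leukocyte markers Csf1r fell (-1.21) and Cd68 rose (0.57) while Ptprc was within it. The endothelial list averaged 6.58 to 6.60 in knockout and 6.60 to 6.72 in wildtype arrays, and the leukocyte list 6.78 to 6.89 in knockout and 6.81 to 6.998 in wildtype arrays. The part of these markers in the differences of the nephron genes was not tested.

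Of the 22 genes that were not called, 17 had their lowest value in wildtype array 2, 77.3% of them, beside 42.4% of all 26420 genes that were not called. Most of the 22 had both lines within the background range. The share over all genes was not split by that position, so the 77.3% is not read as a trait of these genes. Relative to each gene's mean of 6 arrays the median deviation was -0.10 in wildtype array 2 and 0.08 in wildtype array 1, and between -0.006 and 0.008 in the other 4 arrays. The SD was larger in wildtype than in knockout for 21 of the 22. The same count was not made over all genes, so it is not read as a trait of these genes. Without wildtype array 2, 9 of the 32 genes were called, Irx3 being the one lost, and without wildtype array 1 the same count of 9 was found, again without Irx3.

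**Figure D4:**
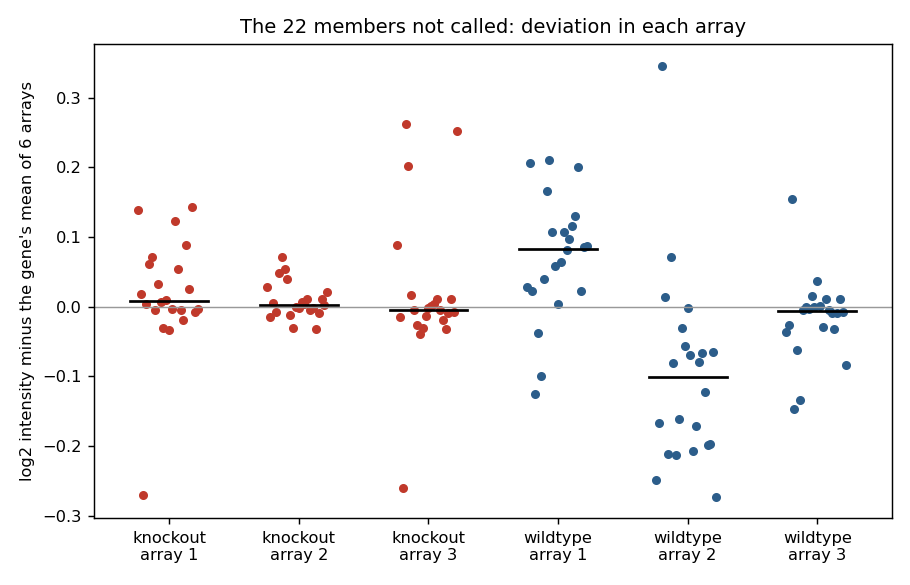
Deviation of each of the 22 genes that were not called from its own mean of 6 arrays, in log2 units, by array, with black bars for the median. Wildtype array 1 sits above and wildtype array 2 below the other arrays, with medians of 0.08 and -0.10.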

How the data were processed

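Log2 probe set intensities of 6 arrays, 3 from knockout and 3 from wildtype cells, were deposited by the authors, with RMA from affy 1.44.0 in R, as the submitters' processing notes record. RMA corrects background, quantile-normalizes and summarises probes, and its median polish can give arrays identical values. The sources used here do not give filters or the probe definition file, and array medians were 6.73 to 6.81. Of 72688 probe sets, 186 were controls, 30604 named 1 gene, 2146 named several and 39752 are unnamed here. Symbols followed the platform annotation, updated through a GRCm38.p6 table for 1135 probe sets, and the brightest probe set was kept for each of 429 genes with several.

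Lines were compared in R 4.3.3 with limma 3.58.1 (lmFit and eBayes, two-sided, no covariate and no filter), adjusted over 30063 genes by Benjamini-Hochberg at 0.05. Precision is limited by having 3 arrays per line. The fit was tested on simulated data with independent normal noise for each gene. Those data held no shift shared by the genes of an array, so the test does not cover such shifts in the real arrays. The members and lists were chosen with earlier results of these data known. All members are named. Values per array are given for those called or with a line above the background range. Up to 3 called genes are named for other lists, except that all called mesangial and stromal markers are named. Other genes were chosen after their values were seen. Figures used matplotlib 3.10.9. Sequences are RefSeq's, GRCm38.p6.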

Additional observations from a re-analysis of the deposited data

How the results depend on the processing

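The alternatives were leaving out each array, the replicate block, array centring or quantile normalization, array weights, another variance prior, only genes above the background range, all probe sets, the mean of a gene's probe sets, leaving out genes with identical values, a threshold of 0.01 and, added after the data were seen, chromosome medians taken off. No called member changed direction in any of these. The count of 10 called members ran from 8 to 10 without each array (5 to 7 lower, always 3 higher). It was 10 with the replicate block, 8 at the threshold of 0.01 and 15 with array weights, of which 7 were higher, among them Six2, Pax2 and Emx2. Array weights gave wildtype array 3 a weight of 53.3, so a pass under them alone is not relied on. Over all genes, 3643 calls became 2065 to 3363 without an array (874 to 1441 higher, 1191 to 1994 lower), 10004 with array weights (5031 higher, 4973 lower) and 1940 at 0.01 (845 higher, 1095 lower). Higher calls numbered 2337 among all probe sets and 2815 with chromosome medians taken off. With the median of the background probe sets as the limit, 0 members had both lines within background, in place of 19. The replicate block gave 3734 calls over all genes. Same-numbered arrays correlated in their deviations from the line means at 0.34, 0.27 and 0.04, so the numbers were not taken as pairs. Knockout array 3 correlated best with wildtype array 2 (0.05), and the other 5 arrays with their own number. Position relative to background and the number of arrays limit all values.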

Other observations

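RMA gave Aqp4 and Slc5a1 the same value in all 3 knockout arrays, 6.41 and 6.19, as it did for 1625 of all 30063 genes in knockout and 317 in wildtype. Both genes were within the background range, and neither was called. The SD of 0 in knockout understates the replicate error of these 2 genes.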
